A study of Arabidopsis thaliana with 12 samples.

Results

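Cytochrome P450 genes were followed through cold treatment in seedlings of Arabidopsis thaliana, both wild type and mutant rcf1-1. The members were the probe sets that the array's annotation paired with exactly 1 gene whose symbol begins with CYP, 2 or 3 digits and a letter, and they came to 23 of the 13350 genes named this way. In all, 22746 probe sets were tested. Each had a single probe set. Of the 23, 19 belong to the CYP71B subfamily, and the other 4 are CYP51G2, CYP78A9, CYP79A2 and CYP84A4. The TAIR10.1 gene table holds 236 genes with such symbols, 36 of them CYP71B, so these 23 do not stand for the family, and the rest were not analysed here. CYP51G2 and CYP71B27 are transcribed pseudogenes in that table.

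Cytochromes P450 are heme enzymes that use molecular oxygen and electrons from NADPH, usually through a membrane-bound reductase, to oxidise small molecules. In plants they make and break down hormones, lignin precursors, membrane sterols, cutin and many defence compounds, and a subfamily such as CYP71B groups genes of similar sequence that often lie side by side on a chromosome. CYP71B15, which is not among the members, makes the indole phytoalexin camalexin, while the substrates of most other CYP71B enzymes are poorly known.

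Seedlings were raised for 14 days at 21 °C and then moved to 4 °C for 12 h or 24 h, while the 0 h groups stayed unchilled. The wild type was Columbia gl1 carrying a CBF2::LUC reporter, and rcf1-1 is a single mutant line with a lesion in the gene of a DEAD-box RNA helicase. The 6 groups of genotype and time had 2 biological replicates each, with RNA from the whole seedling on 1 Affymetrix ATH1 array per replicate. All values are log2 RMA values, for which the array's own median lay between 4.03 and 4.22. Group means under 4.03, which is less than each array's median, count here as near the floor of the signal range. A called difference there can understate the true size and is treated as a lower bound, which was not tested. The gene mutated in rcf1-1 was not analysed here. Of 8 listed markers of photosynthetic tissue 2 were paired with a probe set, RCA with group means of 11.85 to 12.75 and LHCB4.2 with 12.09, 11 and 9.58 at 0 h, 12 h and 24 h in wild type and 11.93, 10.7 and 9.25 in rcf1-1. Of 7 root markers 3 were paired. Between 0 h and 24 h, wild-type means went from 11.55 to 10.72 for PYK10, from 5.91 to 6.62 for PRX72 and from 4.76 to 4.25 for EXPA7. Those of rcf1-1 went from 11.6 to 10.58, from 5.52 to 6.16 and from 4.68 to 4.14. The 1 paired marker of 5 for flowers and pollen, LAT52, lay at 2.52 to 2.79. The levels of these markers thus differed between times in both genotypes and not all in 1 direction, and their part in the P450 results was not tested. In whole seedlings, fewer cells of a type and less RNA per cell cannot be told apart.

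Both replicate 2 arrays at 24 h stood apart from the other 10. Their GAPDH control had a 5' minus 3' log2 difference of -5.13 in wild type and -4.45 in rcf1-1, against -1.06 to -0.29 elsewhere. Among the 23 P450 genes, 12 read higher on replicate 2 than on replicate 1 at 24 h in both genotypes, 2 read lower in both and 9 went opposite ways. The first of these sets held CYP71B28, with replicate differences of 0.9 in wild type and 1.02 in rcf1-1, and CYP71B29, with 0.71 and 0.99. The second held CYP71B5, with -1.06 and -0.83, and CYP71B34, with -0.39 and -0.62. For several members that these 2 arrays move, the value without them or within each replicate stands beside the 24 h result. Fits without them leave 1 array in each 24 h group, so their 24 h values carry no replicate spread from that time.

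**Figure D1:**
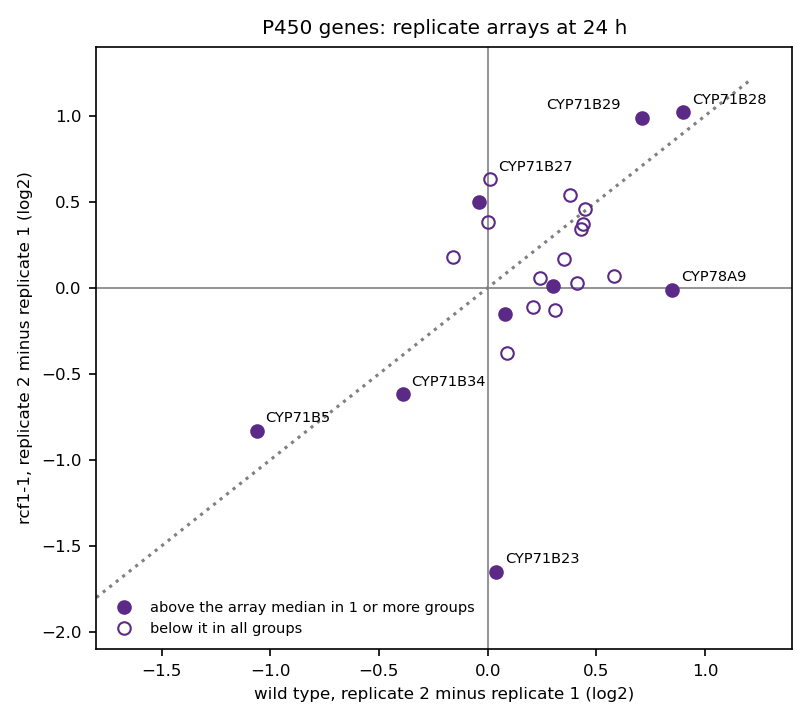
Replicate 2 minus replicate 1 at 24 h, in log2 units, for the 23 P450 genes in wild type (horizontal axis) and rcf1-1 (vertical axis). Filled points are genes with at least 1 group mean above the lowest array median, open points genes below it in all 6 groups, and the dotted line marks equal differences; CYP71B28 and CYP71B29 lie at the upper right, CYP71B5 at the lower left, and CYP71B23 moved by -1.65 in rcf1-1 against 0.04 in wild type.

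Most of these P450 genes gave little signal in seedlings. For 14 of the 23, all 6 group means lay under 4.03, as they did for 41.1% of all probe sets. Of those 14, 11 were called in no comparison. They are CYP51G2, CYP71B16, CYP71B21, CYP71B22, CYP71B25, CYP71B27, CYP71B30P, CYP71B31, CYP71B38, CYP79A2 and CYP84A4. Their single arrays read 2.02 to 3.5, and their log2 differences over the 7 comparisons of 2 groups ran from -0.42 to 0.46. At such low signals a difference can be understated, which was not tested. The share of all probe sets called in no comparison was not computed, so the count of 11 is not read as unusual. Above 4.03 in all 6 groups were 5 genes, CYP71B5, CYP71B6, CYP71B26, CYP71B28 and CYP71B34. CYP71B23, CYP71B29, CYP71B35 and CYP78A9 passed 4.03 in some groups.

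The response to cold was measured within each genotype against 0 h, with a call at an adjusted p under 0.05 over all probe sets. In wild type at 12 h, 2 of the 23 members were called, 1 higher and 1 lower, where 12% of all probe sets were called (6.05% higher, 5.92% lower). At 24 h in wild type 1 was called, lower, against 13.2% of all probe sets (5.83% higher, 7.33% lower). In rcf1-1 at 12 h, 4 members were called, 1 higher and 3 lower, against 12.2% (5.46% higher, 6.78% lower). At 24 h in rcf1-1, 5 members were called, 1 higher and 4 lower, against 20.8% (8.38% higher, 12.4% lower). The median log2 difference of the members was -0.07, 0.04, -0.03 and 0.08 in these 4 comparisons, beside medians over all probe sets of -0.01, 0.02, 0 and 0.03. The members' shares were 8.7%, 4.35%, 17.4% and 21.7%, below the background in wild type and above it in rcf1-1. With 1 to 5 genes behind each share, none is read as particular to the family. All 5 genes called in the cold belong to CYP71B, as do 19 of the 23 members. Fits with the compared arrays alone called 5, 0, 8 and 3 members, beside 5003, 785, 8550 and 2001 of all probe sets.

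**Figure D2:**
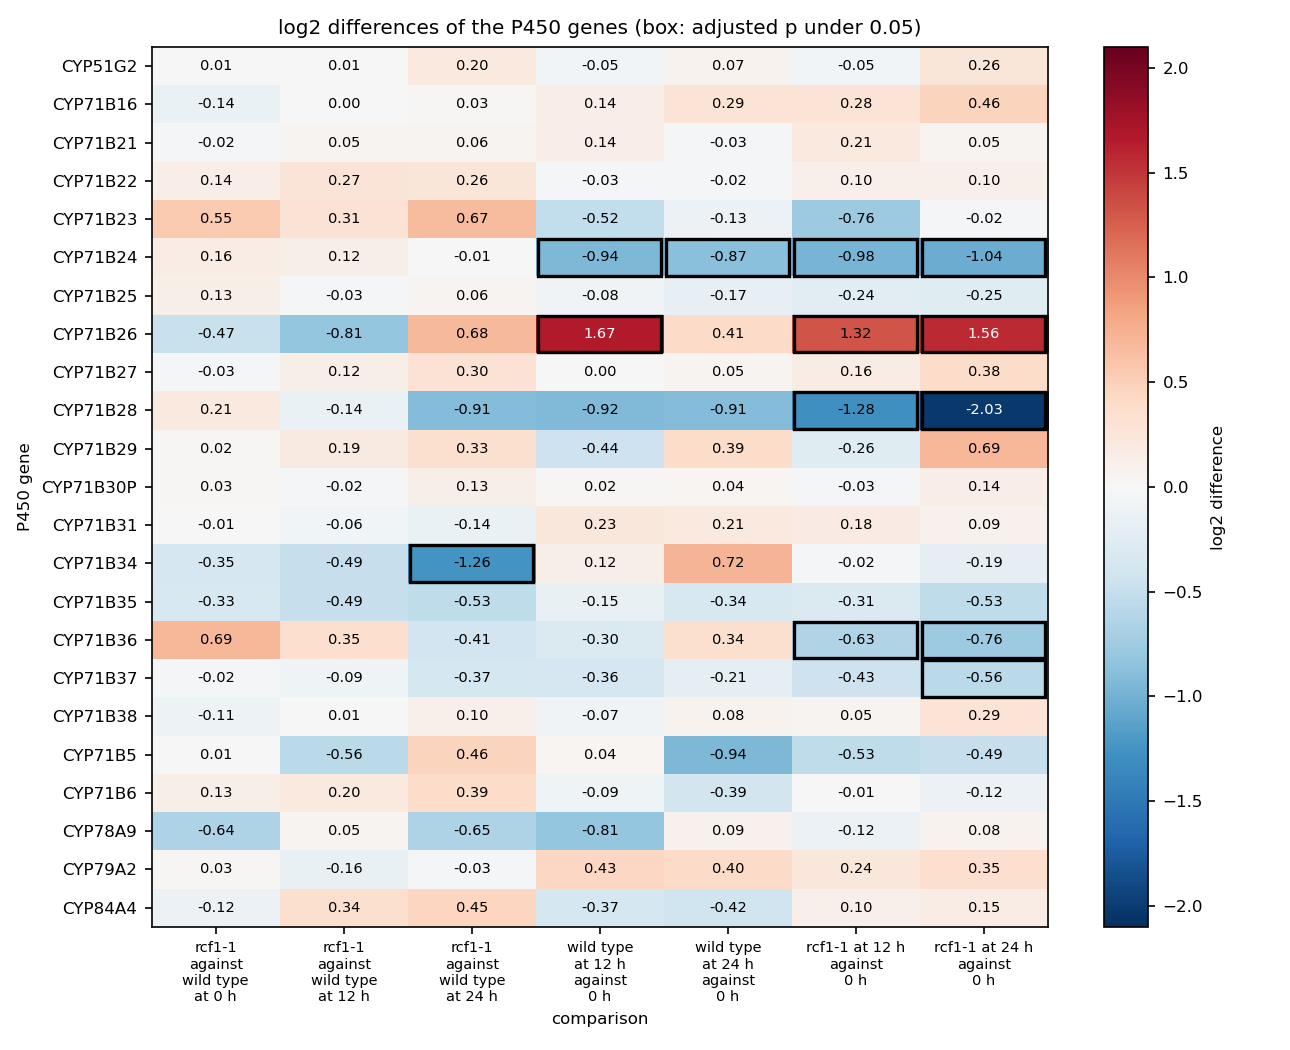
Log2 differences of the 23 P450 genes (rows) in the 7 comparisons of 2 groups (columns), with the value in each cell and colour from blue (lower) to red (higher). Black boxes mark adjusted p under 0.05; CYP71B24 is boxed lower in all 4 cold columns and CYP71B26 higher in 3 of them.

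CYP71B26, on chromosome 3 (locus AT3G26290), rose in the cold in both genotypes. In wild type its 2 arrays read 6.14 and 6.49 at 0 h, 7.97 and 7.99 at 12 h, and 6.57 and 6.87 at 24 h. In rcf1-1 they read 5.74 and 5.96 at 0 h, 7.24 and 7.1 at 12 h, and 7.4 and 7.41 at 24 h. Both chilled groups of rcf1-1 lay above its 0 h arrays, whereas the wild-type arrays at 24 h lay close to those at 0 h and well below those at 12 h. The rise in wild type at 12 h was 1.67 ± 0.21 on the log2 scale, or 3.18-fold (SE, n = 2 per time; limma adjusted p = 0.00042). In rcf1-1 it was 1.32 ± 0.21 at 12 h (adjusted p = 0.0018) and 1.56 ± 0.21 at 24 h (adjusted p = 0.00052). These 3 rises were called in each of their 19 alternative fits. In wild type at 24 h the difference was 0.41 ± 0.21 (adjusted p = 0.25).

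CYP71B26 also read differently in the genotypes, but no such difference was called in the main fit. rcf1-1 stood at -0.47 ± 0.21 against wild type at 0 h (adjusted p = 0.73), -0.81 ± 0.21 at 12 h (adjusted p = 0.1) and 0.68 ± 0.21 at 24 h (adjusted p = 0.081). At each time the arrays of the genotypes did not overlap, with rcf1-1 lower at 0 h and 12 h and higher at 24 h. The 24 h cold response of rcf1-1 exceeded that of wild type by 1.15 ± 0.3 (95% confidence interval 0.49 to 1.81; adjusted p = 0.11). Without both 24 h replicate 2 arrays, which leaves 1 array per genotype at 24 h, the 24 h difference was 0.83. The difference between the 24 h responses was then 1.3. Within the replicates, rcf1-1 exceeded wild type at 24 h by 0.83 in replicate 1 and 0.54 in replicate 2.

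CYP71B24 (AT3G26230), in the same stretch of chromosome 3 as CYP71B26, fell in the cold in both genotypes. Its wild-type arrays read 3.42 and 3.4 at 0 h, 2.48 and 2.45 at 12 h, and 2.25 and 2.83 at 24 h. Those of rcf1-1 read 3.42 and 3.71 at 0 h, 2.52 and 2.64 at 12 h, and 2.5 and 2.56 at 24 h. Every chilled array lay below every unchilled one, and all lay below the array medians, so the falls are treated as lower bounds in size. The log2 differences were -0.94 ± 0.18 in wild type at 12 h (adjusted p = 0.0061), -0.87 ± 0.18 at 24 h (adjusted p = 0.0097), -0.98 ± 0.18 in rcf1-1 at 12 h (adjusted p = 0.0045) and -1.04 ± 0.18 at 24 h (adjusted p = 0.0026). Without both 24 h replicate 2 arrays the 24 h differences were -1.16 in wild type and -1.07 in rcf1-1. The genotypes differed by 0.16, 0.12 and -0.01 at the 3 times, none of them called. Calls were lost at 12 h without wild-type 12 h replicate 2 (adjusted p = 0.058), or for rcf1-1 without its 0 h replicate 2 (0.056) or 12 h replicate 1 (0.054), and at 24 h in wild type without either 0 h array (0.059 and 0.063) or with the compared arrays alone (0.11).

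CYP71B28 (AT1G13090) lies on chromosome 1 next to CYP71B29, and fell in chilled rcf1-1. In rcf1-1 its arrays read 7.37 and 7.06 at 0 h, 5.81 and 6.06 at 12 h, and 4.67 and 5.69 at 24 h. In wild type they read 7.12 and 6.88, then 5.98 and 6.17, then 5.64 and 6.54. The chilled arrays of both genotypes lay below the unchilled ones, with the lowest value on an rcf1-1 array at 24 h. In rcf1-1 it fell by 1.28 ± 0.36 at 12 h (adjusted p = 0.042) and by 2.03 ± 0.36 at 24 h, or 4.1-fold (adjusted p = 0.0027). The wild-type differences of -0.92 ± 0.36 and -0.91 ± 0.36 were not called (adjusted p = 0.15 and 0.13), and the difference between the genotypes' 24 h responses was -1.12 ± 0.51 (95% confidence interval -2.25 to 0.01; adjusted p = 0.4). The genotypes are therefore not shown to differ in this response. Without both 24 h replicate 2 arrays, which leaves 1 array in each 24 h group, the 24 h differences were -1.36 in wild type and -2.54 in rcf1-1. At 24 h rcf1-1 then stood at -0.96 against wild type. With a term for those arrays the wild-type falls at 12 h and 24 h were called (limma adjusted p = 0.0012 and 1e-04). The 24 h genotype difference of -0.91, not called in the main fit (adjusted p = 0.18), was called with the term (0.0018). With the compared arrays alone the wild-type fall was called at 12 h (0.0052) and not at 24 h (0.28). The 24 h genotype difference was then not called (0.8). The call in rcf1-1 at 12 h was lost without any 1 of the 8 arrays at 0 h and 12 h (adjusted p 0.067 to 0.26) and after a second quantile normalization (0.097), while that at 24 h held in all 19 alternative fits.

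**Figure D3:**
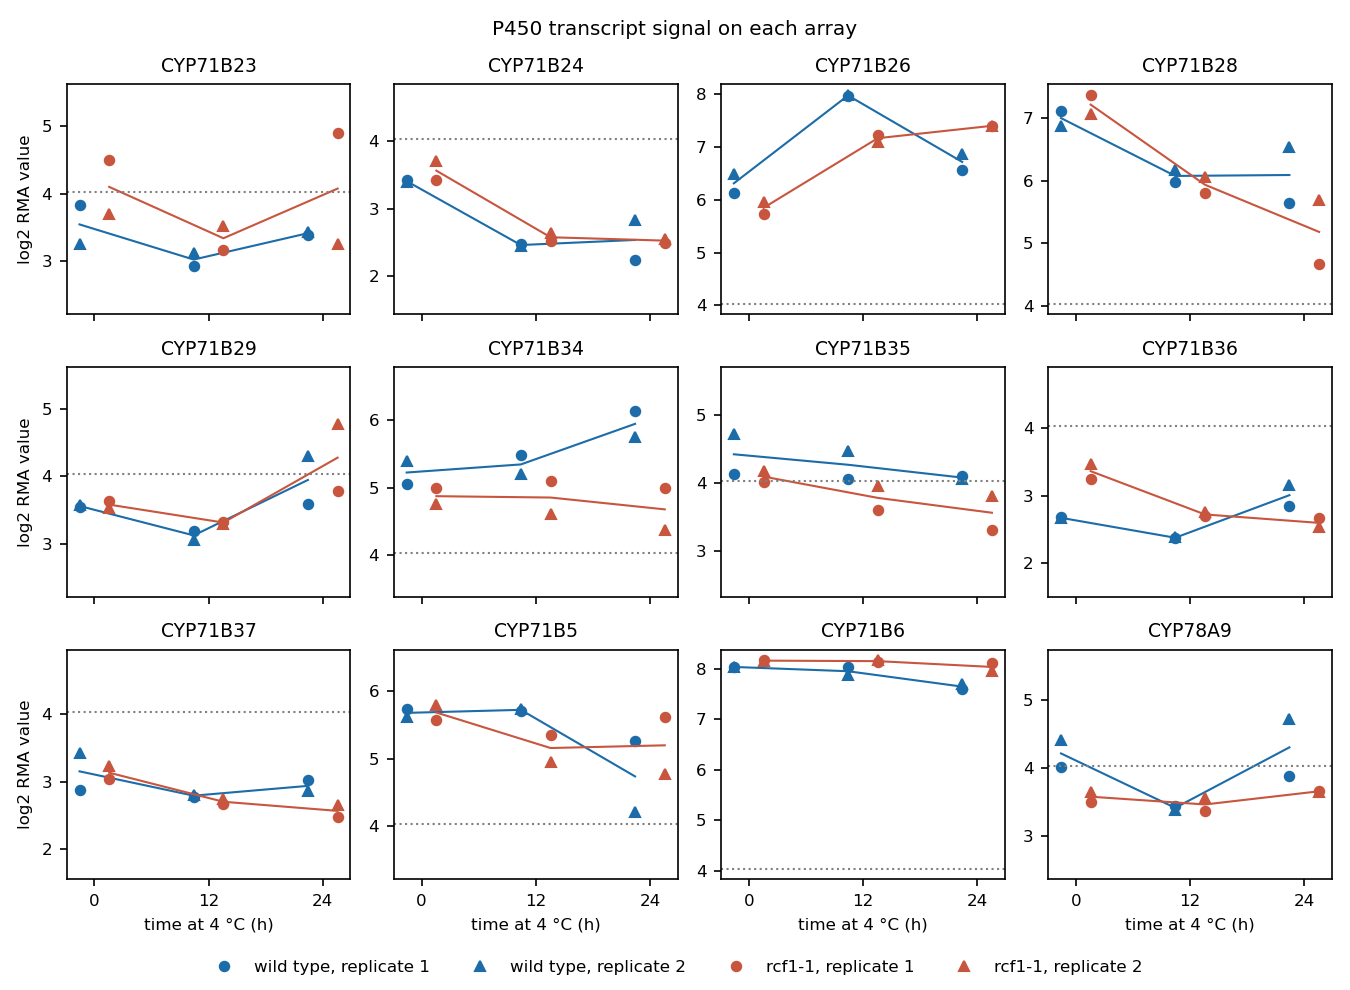
Log2 RMA value on each array against time at 4 °C (h) for the 9 P450 genes above the lowest array median in at least 1 group and the 3 called genes below it. Circles are replicate 1, triangles replicate 2, blue wild type and red rcf1-1; lines join the means of 2 arrays and the dotted line is the lowest array median of 4.03. CYP71B26 stood at 7.97 and 7.99 in wild type at 12 h and at 6.57 and 6.87 at 24 h, CYP71B28 was lowest in rcf1-1 at 24 h, and CYP71B6 stayed between 7.6 and 8.17.

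The effect of the mutation was measured by comparing the genotypes at each time. At 0 h, 0 of 23 members were called by limma (0.11% of all probe sets, 0.0923% higher and 0.0176% lower), and 3 had an unadjusted p under 0.05, of which 1 was higher and 2 lower. At 12 h, 0 were called (1.35% of all probe sets, 0.541% higher and 0.809% lower) and 2 had an unadjusted p under 0.05. At 24 h, 1 member was called, lower in rcf1-1, where 7.5% of all probe sets were called (3.31% higher, 4.19% lower). There 7 members had an unadjusted p under 0.05, 3 higher and 4 lower in rcf1-1. The share of all probe sets under that unadjusted threshold was not computed. The members' median differences of 0.01, 0.01 and 0.06 lay close to the medians over all probe sets of -0.02, -0.01 and 0. With the compared arrays alone 1, 3 and 0 members were called, beside 331, 3874 and 17 of all probe sets.

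The gene called at 24 h was CYP71B34 (AT3G26300), which lies directly beyond CYP71B26 among the protein-coding genes of chromosome 3. Its arrays at 24 h read 6.14 and 5.75 in wild type and 4.99 and 4.37 in rcf1-1. At 0 h they read 5.06 and 5.39 against 4.99 and 4.76, and at 12 h 5.49 and 5.2 against 5.1 and 4.61. The rcf1-1 arrays lay below the wild-type arrays at every time. The log2 difference was -1.26 ± 0.29 at 24 h, or 2.4-fold (SE, n = 2 per genotype; limma adjusted p = 0.024), beside -0.35 ± 0.29 at 0 h (adjusted p = 0.99) and -0.49 ± 0.29 at 12 h (adjusted p = 0.6). Within the replicates it was -1.15 in replicate 1 and -1.38 in replicate 2. The call was lost without wild-type 24 h replicate 1 (-1.07, adjusted p = 0.072), without rcf1-1 24 h replicate 2 (-0.95, adjusted p = 0.07) and with the compared arrays alone (adjusted p = 0.53). The genotypes' 24 h cold responses, 0.72 ± 0.29 in wild type and -0.19 ± 0.29 in rcf1-1, differed by -0.91 ± 0.41, which was not called (adjusted p = 0.39). The wild-type response itself was not called (adjusted p = 0.14), but it was without both 24 h replicate 2 arrays (0.91, adjusted p = 0.016) and with a term for them (0.97, adjusted p = 0.0077). Without those arrays the genotypes differed at 24 h by -1.15 (adjusted p = 0.011).

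CYP71B36 (AT3G26320) was the single member whose cold response was called different between the genotypes. Its arrays in wild type read 2.68 and 2.66 at 0 h, 2.37 and 2.38 at 12 h, and 2.85 and 3.16 at 24 h. In rcf1-1 they read 3.25 and 3.47, then 2.69 and 2.75, then 2.66 and 2.53. The mutant lay above wild type at 0 h and 12 h and below it at 24 h, with no overlap of arrays at any time. In rcf1-1 it fell by 0.63 ± 0.14 at 12 h (adjusted p = 0.011) and by 0.76 ± 0.14 at 24 h (adjusted p = 0.0031). The wild-type differences were -0.3 ± 0.14 (adjusted p = 0.24) and 0.34 ± 0.14 (adjusted p = 0.15). The 24 h responses differed by -1.1 ± 0.2 (adjusted p = 0.026), in a comparison that called 1.1% of all probe sets (0.598% higher, 0.506% lower). All its group means, at 2.37 to 3.36, lie below the array medians, so its called differences between 2 groups are treated as lower bounds in size. Without both 24 h replicate 2 arrays, which leaves 1 array in each 24 h group, the wild-type difference at 24 h was 0.18. The responses then differed by -0.88. The call of the response difference was lost without any 1 of the 8 arrays at 0 h and 12 h (adjusted p 0.064 to 0.15), and with the compared arrays alone (0.19). The 12 h call in rcf1-1 was lost without its 0 h replicate 2 (0.12) or either of its 12 h arrays (0.095 and 0.064), and the 24 h call with the compared arrays alone (0.052).

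In the comparison of the genotypes' 12 h cold responses, 0 of the 23 members were called by limma, beside 0.0879% of all probe sets (0.0484% higher, 0.0396% lower), and 0 had an unadjusted p under 0.05. At 0 h the CYP71B36 difference of 0.69 ± 0.14 had an adjusted p of 0.16, and without both 24 h replicate 2 arrays it was called (adjusted p = 0.0045).

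The last called member was CYP71B37 (AT3G26330), the next gene after CYP71B36. In rcf1-1 its arrays read 3.04 and 3.23 at 0 h, 2.67 and 2.74 at 12 h, and 2.48 and 2.66 at 24 h. In wild type they read 2.88 and 3.43, then 2.78 and 2.81, then 3.02 and 2.86. The chilled rcf1-1 arrays lay below the unchilled ones, while the wild-type arrays overlapped between 0 h and 24 h. It fell in rcf1-1 by 0.56 ± 0.18 at 24 h (adjusted p = 0.048), treated as a lower bound. This call was lost without any 1 of the rcf1-1 arrays or the wild-type 12 h arrays (adjusted p 0.06 to 0.24), without the trend (0.066) and with the compared arrays alone (0.091).

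CYP71B24, CYP71B26, CYP71B34, CYP71B36 and CYP71B37 are 5 of the 11 members that lie in 1 stretch of chromosome 3, from CYP71B16 (AT3G26150) to CYP71B37. From CYP71B26 through CYP71B34, CYP71B35 and CYP71B36 to CYP71B37, no other protein-coding gene intervenes. Neighbours moved differently along it. At 24 h in rcf1-1, 1 of the 11 was called higher and 3 lower, with log2 differences from -1.04 for CYP71B24 to 1.56 for CYP71B26. Of all probe sets, 20.8% were called there (8.38% higher, 12.4% lower). In wild type at 24 h the differences ran from -0.87 for CYP71B24 to 0.72 for CYP71B34, with 1 called, lower. There 13.2% of all probe sets were called (5.83% higher, 7.33% lower), so these counts are not read as particular to the stretch. CYP71B16, CYP71B21, CYP71B22 and CYP71B25 are in the stretch too and gave signals near the lowest. Transcripts of such related genes can cross-hybridise, which the deposited values do not resolve.

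**Figure D4:**
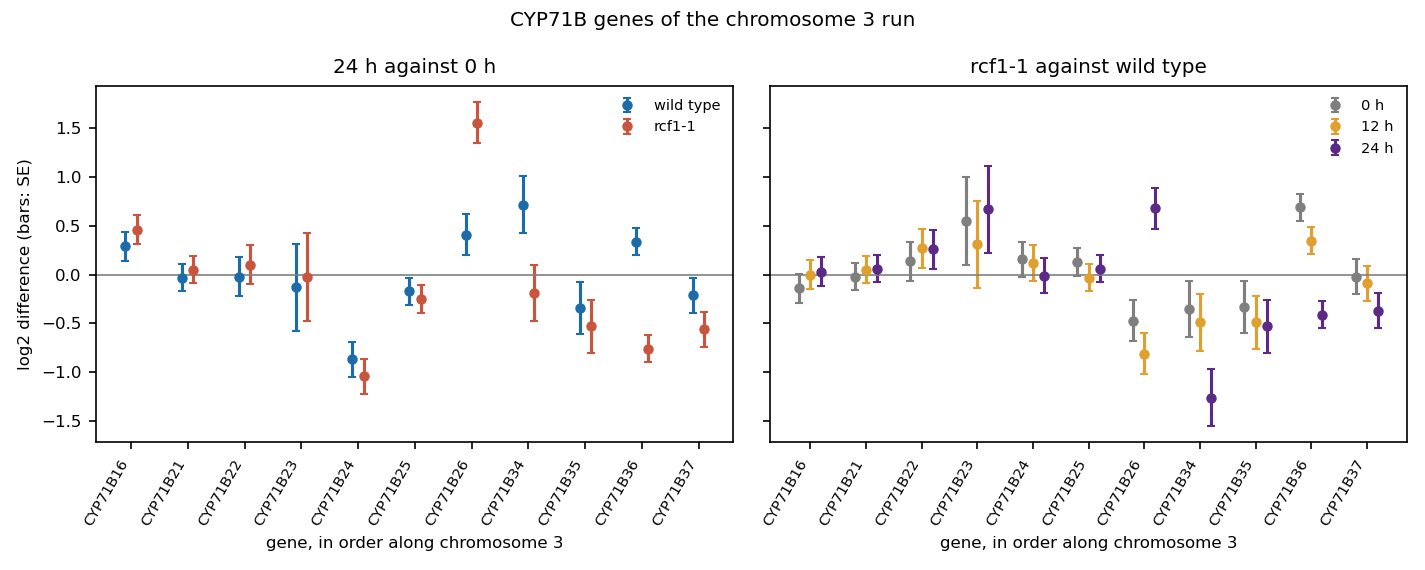
Log2 differences (vertical axis, bars are limma standard errors) of the 11 CYP71B members in order along chromosome 3. The left panel shows 24 h against 0 h in wild type (blue) and rcf1-1 (red), the right panel rcf1-1 against wild type at 0 h (grey), 12 h (orange) and 24 h (purple); CYP71B24 lies low in both genotypes on the left, CYP71B26 reaches 1.56 in rcf1-1, and CYP71B34 lies at -1.26 at 24 h on the right.

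CYP71B35 (AT3G26310), between CYP71B34 and CYP71B36, read 4.13 and 4.72 in unchilled wild type and 4.01 and 4.18 in unchilled rcf1-1. At 24 h it read 4.1 and 4.06 against 3.31 and 3.81. The rcf1-1 arrays lay below the wild-type arrays at 24 h and overlapped them at 0 h. The differences between the genotypes were -0.33 ± 0.27, -0.49 ± 0.27 and -0.53 ± 0.27 at the 3 times, none of them called, and the last was -0.79 in replicate 1 and -0.26 in replicate 2. CYP71B23 (AT3G26210) read 4.9 and 3.25 in rcf1-1 at 24 h against 3.39 and 3.44 in wild type. Its genotype difference at 24 h of 0.67 ± 0.45 was not called (adjusted p = 0.46), and it was 1.51 in replicate 1 and -0.18 in replicate 2.

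CYP71B6 (AT2G24180) is a P450 of indole metabolism that acts on indole-3-acetonitrile. Its wild-type arrays lay between 7.6 and 8.04, and those of rcf1-1 between 7.96 and 8.17. Its cold differences were -0.09 ± 0.18 and -0.39 ± 0.18 in wild type and -0.01 ± 0.18 and -0.12 ± 0.18 in rcf1-1, none of them called. The 95% confidence intervals for rcf1-1, -0.4 to 0.38 at 12 h and -0.51 to 0.27 at 24 h, both span 0. rcf1-1 read 0.39 ± 0.18 above wild type at 24 h (adjusted p = 0.24).

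CYP71B5 (AT3G53280) read 5.74 and 5.62 in wild type at 0 h, 5.71 and 5.74 at 12 h, and 5.27 and 4.21 at 24 h. In rcf1-1 it read 5.57 and 5.8, then 5.36 and 4.96, then 5.62 and 4.78. The low 24 h values in both genotypes were those of replicate 2. Its wild-type difference at 24 h of -0.94 ± 0.36 (adjusted p = 0.12) was -0.41 without both replicate 2 arrays. It was -1.47 without wild-type 24 h replicate 1, a fit that leaves the group with a replicate 2 array alone. CYP71B29 (AT1G13100), next to CYP71B28, read 3.55 and 3.57 in unchilled wild type and 3.59 and 4.3 at 24 h. In rcf1-1 it went from 3.63 and 3.53 to 3.78 and 4.77, and the difference of 0.69 ± 0.31 was not called (adjusted p = 0.14). It was 0.2 without both 24 h replicate 2 arrays and 1.19 without rcf1-1 24 h replicate 1, fits that leave 1 array in that group.

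Of the 4 members outside CYP71B, CYP78A9, a gene of the family that promotes organ growth, read 4.02 and 4.41 in unchilled wild type and 3.5 and 3.65 in unchilled rcf1-1. At 12 h it read 3.44 and 3.38 against 3.37 and 3.55, and at 24 h 3.88 and 4.73 against 3.66 and 3.65. The genotypes did not overlap at 0 h and 24 h, at -0.64 ± 0.27 and -0.65 ± 0.27, and neither difference was called (adjusted p = 0.68 and 0.19). The 24 h difference was -0.22 in replicate 1 and -1.08 in replicate 2. It was -0.22 without both replicate 2 arrays and -1.07 without wild-type 24 h replicate 1, fits that leave a 24 h group with 1 array. With a term for the replicate 2 arrays it was called (adjusted p = 0.041). The wild-type difference at 12 h of -0.81 ± 0.27 (adjusted p = 0.083) was called without both 24 h replicate 2 arrays (adjusted p = 0.0028). CYP84A4, an enzyme of arabidopyrone synthesis, read 2.61 and 2.7 in wild type and 3.29 and 2.91 in rcf1-1 at 24 h, a difference of 0.45 ± 0.17 (adjusted p = 0.15). It was 0.69 without both replicate 2 arrays, which leaves 1 array per genotype at 24 h. With a term for those arrays the CYP84A4 difference was called (limma adjusted p = 0.045), and with the compared arrays alone it was not (0.73). CYP79A2, which converts phenylalanine to its oxime, and the pseudogene CYP51G2, a relative of the sterol demethylase gene, had group means of 2.53 to 2.96 and 2.68 to 2.99.

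Of 133 genes listed by the pathways that P450s serve, 8 were paired with a probe set, 4 of them members. None of the 8 listed electron donors, the reductases and cytochromes b5, was paired. UGT74B1, the glucosyltransferase that follows the P450 steps of glucosinolate synthesis, fell in the cold in both genotypes. Its log2 differences were -2.36 ± 0.3 at 12 h and -2.89 ± 0.3 at 24 h in wild type, and -3.16 ± 0.3 and -3.78 ± 0.3 in rcf1-1 (limma adjusted p 1.6e-05 to 0.00048). BCAT4, an aminotransferase of the methionine chain that feeds aliphatic glucosinolates, fell at 24 h, with differences of -2.66 ± 0.25 in wild type (adjusted p = 9.4e-05) and -1.81 ± 0.25 in rcf1-1 (adjusted p = 0.00061). The glutathione transferase GSTU20 also fell at 24 h, with -1 ± 0.29 (adjusted p = 0.047) and -0.91 ± 0.29 (adjusted p = 0.049). The locus AT5G08250, listed with fatty acid oxidation, was higher in rcf1-1 than in wild type at 24 h by 0.99 ± 0.22 (adjusted p = 0.022). With a wild-type mean of 3.3, this is treated as a lower bound. Within rcf1-1 it rose by 1.33 ± 0.22 at 24 h (adjusted p = 0.0018). Alternative fits were made for the members alone, so the part of the 24 h replicate 2 arrays in these 24 h calls was not tested. In the same lists CYP71B6, the paired P450 of the indole list, was not called in any comparison.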

How the data were processed

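Whole-seedling RNA was measured on 12 Affymetrix ATH1 arrays, 2 per group of genotype and time, grouped by the labels' titles. The authors deposited log2 values, which the submitters' processing notes attribute to RMA. Which software made them, and which arrays were normalized jointly, was not given in the sources used here. No scanner file was read. After removal of 64 control probe sets, 22746 were tested. Gene names came from the annotation of the array (13513 with exactly 1 gene, 503 with several, 8730 unnamed here) and the TAIR10.1 gene table, and all 23 member symbols matched it. The members, lists and tests were chosen with earlier results of these data known. Tests used limma 3.58.1 in R 4.3.3, with a mean per group on all arrays, 6 residual degrees of freedom, eBayes with a trend (4.7 prior degrees of freedom), and Benjamini-Hochberg adjustment over all probe sets in each of 9 contrasts. Errors are limma's standard errors, which pool all groups. Named are members called in a genotype contrast, the 10 largest called in each direction per cold contrast, and members of the pathway lists; the others are named with their values because each member is accounted for. Alternatives were eBayes without the trend, a filter on dim probe sets, a second quantile normalization, a replicate block, a term for or removal of both 24 h replicate 2 arrays, fits of the compared groups alone, and each array left out in turn. The procedure was tested on simulated data. The number of arrays limits precision. The main fit did not pair the samples by replicate number. Across probe sets, the replicate differences of both genotypes correlated at r = -0.073 at 0 h, -0.056 at 12 h and 0.69 at 24 h. At 24 h the replicates of both genotypes thus differed in a partly shared way.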

Additional observations from a re-analysis of the deposited data

Results flagged for a closer look

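CYP71B36 differed between the genotypes in its 24 h response to cold. The response of rcf1-1 minus that of wild type was -1.1 on the log2 scale in the interaction test of limma, with an adjusted p of 0.026. Its response was -0.76 in rcf1-1 and 0.34 in wild type. The call held in 9 of 18 alternative fits, with values from -1.25 to -0.88 and adjusted p from 0.0016 to 0.19. The signal lay below the array medians in every group, and whether that bears on the difference was not tested.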

How the results depend on the processing

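Counts of called members are given in the order 0 h, 12 h and 24 h between genotypes, wild type 12 h and 24 h, rcf1-1 12 h and 24 h, and the 12 h and 24 h response differences. The reported counts are 0, 0, 1, 2, 1, 4, 5, 0 and 1. Beside them 25, 307, 1706, 2724, 2994, 2784, 4734, 20 and 251 of all probe sets were called. The number called over all probe sets also changed from fit to fit, so a changed count is not read as particular to the members. Without the trend, the 12 h and 24 h genotype counts were 1 and 2, beside 478 and 2098 of all probe sets. The 24 h response difference gave 2, beside 467. A filter on the lowest 30% of probe sets kept 10 members and gave 1, 0, 2 and 2 in the cold contrasts and 0 for the 24 h response difference, since it removed dim members. Of all probe sets it kept, 2980, 3430, 3022 and 4926 were called in the cold contrasts and 359 in the response difference. A term for both 24 h replicate 2 arrays gave 1, 1, 6, 4 and 3 for the first 5 contrasts and 3 for the last. Over all probe sets it called 691, 2196, 5426, 5595 and 5495 in those 5 and 2581 in the last. Leaving those arrays out gave 1, 1, 5, 5, 3 and 7 for the first 6 and 4 for the last. The compared arrays alone gave 1, 3, 0, 5, 0, 8, 3, 0 and 0. Over all probe sets they called 331, 3874, 17, 5003, 785, 8550, 2001, 685 and 28. Other causes were not tested. The replicate block gave 0, 0, 1, 2, 1, 4, 6, 0 and 1, the added call being CYP71B16 in rcf1-1 at 24 h (0.46, adjusted p = 0.04). Over all probe sets it called 28, 304, 1736, 2812, 3203, 2890, 5088, 16 and 235. Leaving out each array in turn gave 0 to 0, 0 to 0, 1 to 3, 1 to 3, 0 to 5, 1 to 4, 4 to 8, 0 to 0 and 0 to 1. The 24 h genotype count was 3 without wild-type 24 h replicate 1 or rcf1-1 24 h replicate 2, and 2 without rcf1-1 24 h replicate 1. The wild-type 12 h count was 1 without wild-type 12 h replicate 2. The wild-type 24 h count was 0 without either wild-type 0 h array, 5 without wild-type 24 h replicate 1, and 2 without any other 24 h array. The rcf1-1 12 h count was 1 without its 0 h replicate 2 or 12 h replicate 1 and 2 without its 12 h replicate 2, the rcf1-1 24 h count was 8 without its 24 h replicate 1, and the 24 h response difference was 0 without any 1 of the 8 arrays at 0 h and 12 h. No value with an unadjusted p under 0.05 changed direction in any of these fits. No gene had a second probe set, so another choice of probe set could not be tried.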
